A study of Rattus norvegicus with 20 samples.

Results

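The perineuronal net genes described here are Acan, Bcan, Ncan, Vcan, Hapln1, Tnr, Tnc and Ptprz1. They are 8 of the 14217 genes that the array annotation names with a single symbol, and were measured by 17 of 31042 probe sets. A probe set was a member where it was annotated to exactly 1 of these symbols, and the probe set with the highest mean over all arrays is the main value of its gene. Expression was measured in alcohol-preferring (P) rats with 3' Affymetrix arrays, and the tissue was the central nucleus of the amygdala, a mostly GABAergic region of the forebrain. In the ethanol group (n = 10) the animals had access to solutions of 15% and 30% ethanol in adolescence, and in the water group (n = 10) they had only water. Each array holds the RNA of 1 numbered animal, and the labels add no age, sex, ethanol intake or interval between drinking and tissue collection.

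Perineuronal nets are lattices of extracellular matrix around the cell body and proximal dendrites of some neurons, above all fast-spiking interneurons that express parvalbumin. Lecticans, a family of chondroitin sulfate proteoglycans, bind hyaluronan at the cell surface through link proteins and are cross-linked to each other by tenascins. Neurons, astrocytes and cells of the oligodendrocyte lineage all contribute components, and the nets mature during adolescence, when plasticity declines.

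Values are RMA summaries on a log2 scale, so a difference of 1 is a doubling. The medians of the arrays ran from 7.92 to 7.97, and any pair correlated at 0.947 or more. The arrays of ethanol animal 5 and water animals 15 and 18 correlated least with the others, and several results are given without them too. The log2 difference between 3' and 5' control signal, a measure of RNA integrity, was 1.37 ± 0.178 with ethanol and 1.48 ± 0.213 with water (SD, n = 10 each). Of 9 measured markers of the central amygdala, 8 were above the filter on dim probe sets (mean log2 above 7.14), among them Prkcd (9.70), Crh (9.81) and Sst (13.06), while Calcrl was at 6.0. All 5 measured markers of striatal medium spiny neurons and 3 of 4 of cortical and basolateral excitatory neurons were above it too. How cleanly the nucleus was dissected was not tested. All 8 oligodendrocyte markers, all 5 of oligodendrocyte precursors and 6 of 7 of astrocytes had a lower mean with ethanol. This held for 0 of 6 neuronal markers and for 42.2% of all probe sets tested. The median difference was -0.359 for oligodendrocyte, -0.0995 for precursor, -0.0739 for astrocyte and 0.124 for neuronal markers. The mean of the oligodendrocyte markers ran from 12 to 13.38 in ethanol and from 12.67 to 13.65 in water animals, and that of the astrocyte markers from 12.27 to 12.58 and from 12.33 to 12.68. In bulk tissue, fewer cells of a type and less RNA per cell cannot be told apart.

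None of the net genes passed the test between ethanol and water. The main probe sets of Bcan, Vcan, Hapln1, Tnr, Tnc and Ptprz1 passed the filter, and limma called 0 of these 6 (adjusted p of 0.347 to 0.872), where the background was 0.0215% of 18625 probe sets. At an unadjusted p under 0.05 there were 2 of 6, Vcan and Tnc, both lower with ethanol, against 12.8% of all probe sets tested in either direction and 5.48% in the lower one. Acan and Ncan were below the filter, and their values come from a fit over all 31042 probe sets, which called 0.00966% of them and neither gene. Of all 8 genes, 4 had a lower and 4 a higher mean with ethanol, where 42.2% of probe sets tested were lower, and the groups overlapped for each. The median difference of the 6 tested genes was -0.0553, beside 0.0161 for all probe sets tested.

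**Figure D1:**
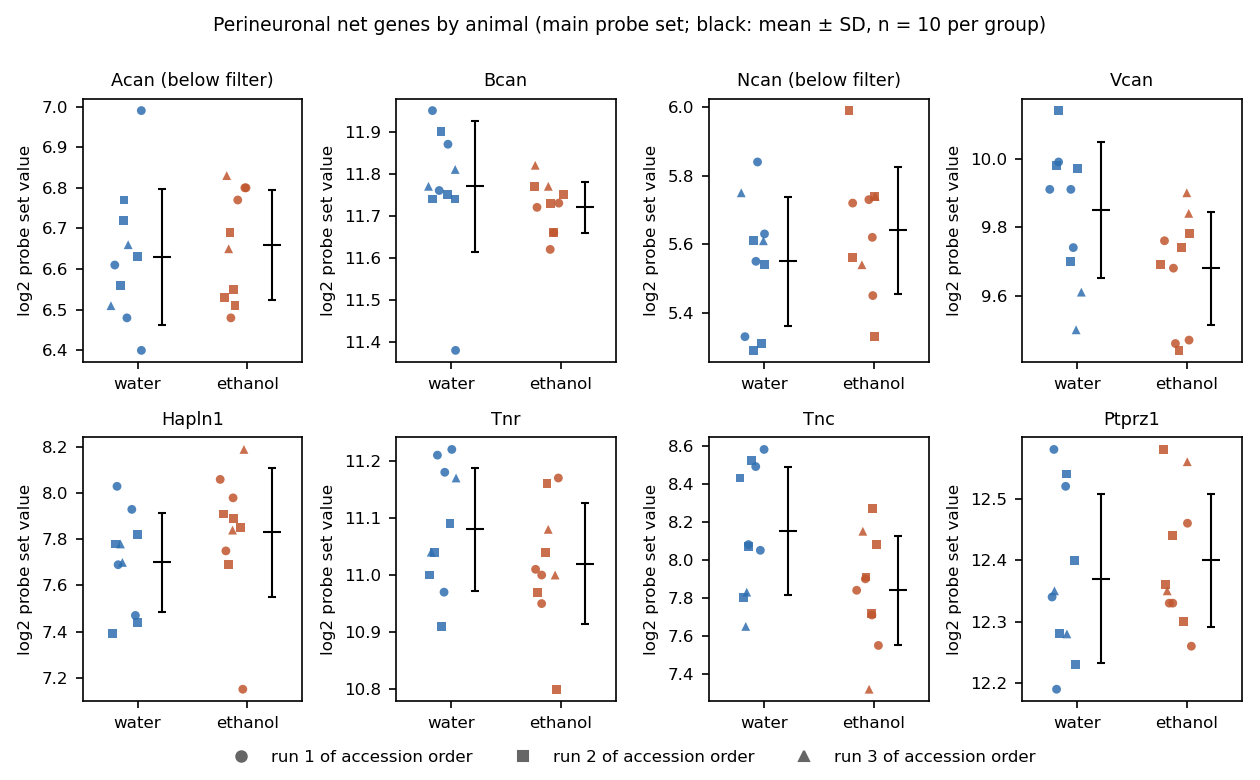
Log2 value of the main probe set of each of the 8 net genes (vertical axes, each with its own range) in every water (blue) and ethanol (orange) animal, with the group mean ± SD (n = 10) in black; circles, squares and triangles are the first, second and last run of the accession order. The groups overlap for each gene, and the ethanol animals of Vcan and Tnc lie mostly in the lower part of the water range.

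The bases upstream of Vcan and Tnc are shown because these genes had the smallest p between the groups and followed the glial genes most closely. Each is the 250 bases before the first listed transcription start, written 5' to 3' on the strand of the gene, from RefSeq on assembly GRCr8, at chr2:22595956-22596205 (minus strand) for Vcan and chr5:82476132-82476381 (minus strand) for Tnc. Capitals mark a match to the letters TATAAA, the TATA box core. The match in Tnc lies near the 5' end of its window, far from the transcription start, and its use as a TATA box was not tested. The stretch tatataag nearer the start does not hold these letters and is not marked.
Vcan: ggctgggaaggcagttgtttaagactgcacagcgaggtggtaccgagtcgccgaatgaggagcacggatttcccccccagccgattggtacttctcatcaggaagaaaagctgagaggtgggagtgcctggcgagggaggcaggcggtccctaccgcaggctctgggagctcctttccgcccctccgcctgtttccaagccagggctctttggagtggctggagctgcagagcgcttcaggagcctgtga
Tnc: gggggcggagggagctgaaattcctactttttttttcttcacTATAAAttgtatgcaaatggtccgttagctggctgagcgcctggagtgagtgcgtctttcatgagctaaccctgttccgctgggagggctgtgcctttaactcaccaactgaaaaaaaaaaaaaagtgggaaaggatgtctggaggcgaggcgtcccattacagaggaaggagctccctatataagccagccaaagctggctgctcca
Both strands were searched, and matches may overlap. Tnc held TATAAA, found in 12.9% of 33469 rat promoter windows of this length. Sox factor cores were searched as ACAAAG, which occurs in 16.3% of the windows, and ACAATG, which occurs in 11.1%. A core of nuclear factor I was searched as TTGGCA, which 12% of the windows hold. Vcan held none of these letters, and Tnc none besides TATAAA. Among the other net genes with an entry, Ncan held TATAAA, Hapln1 held ACAAAG and the rest held none. GC content was 61.6% for Vcan, with 12 CG dinucleotides, and 49.6% for Tnc, with 7. Over the 7 net genes with an entry (Acan, Bcan, Ncan, Vcan, Hapln1, Tnr and Tnc), CG counts ran from 0 for Tnr to 24 for Acan, where the median window held 5.

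Among the lecticans, Vcan stood lowest relative to water. Vcan encodes versican, which in brain is made largely by the oligodendrocyte lineage and is found around nodes of Ranvier as well as in nets. Its lowest, median and highest values were 9.44, 9.72 and 9.90 in ethanol animals and 9.50, 9.91 and 10.14 in water animals. The top of the ethanol range was below the water median: 6 of 10 water animals lay above the highest ethanol animal, and 3 ethanol animals lay below the lowest water animal. The means were 9.68 ± 0.165 and 9.85 ± 0.199 (SD, n = 10 per group), a difference of -0.17 (SE 0.0787, 95% interval -0.33 to -0.01), with 9 of 10 ethanol animals below the water mean. This difference did not pass the test over all probe sets (limma p = 0.0425, adjusted p = 0.375). Without the arrays that stood apart it was -0.14 (SE 0.0845; limma p = 0.114, adjusted p = 0.6). Accession order falls into 3 runs that no label names, of 8, 8 and 4 arrays, each with as many ethanol as water animals. The Vcan difference was -0.29 in the first and the second run and 0.31 in the last. The other Vcan probe sets gave differences of -0.08, -0.11, -0.04 and 0.00, the last pair below the filter, and followed the main one over the 20 arrays at r = 0.875, 0.758, 0.763 and 0.391 after centring within groups.

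Acan encodes aggrecan, the lectican most closely tied to mature nets. Its main probe set was dim, at 6.48, 6.67 and 6.83 (lowest, median, highest) in ethanol animals and 6.40, 6.62 and 6.99 in water animals. Water animals held both the highest and the lowest value, so that the ethanol range lay inside the water range. The difference was 0.03 (SE 0.0667, 95% interval -0.11 to 0.17; limma adjusted p = 0.919 with no filter), and it was -0.04 for the other Acan probe set, which followed the main one at only r = 0.109. The direction of Acan therefore depended on the probe set.

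Bcan encodes brevican, a lectican of adult brain made by astrocytes and neurons. Its values were 11.62, 11.73 and 11.82 in ethanol animals and 11.38, 11.76 and 11.95 in water animals. The SD was 0.0603 in ethanol and 0.156 in water animals. Water animal 15, an array that stood apart, was the lowest of all and widened the water spread. The other water animals ran from 11.74 to 11.95. The difference was -0.04 (SE 0.0536, 95% interval -0.15 to 0.07; limma adjusted p = 0.757). Without the 3 arrays that stood apart it was -0.07 (SE 0.0378; limma adjusted p = 0.577). The other Bcan probe set gave -0.02 and ran against the main one across arrays (r = -0.258).

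Ncan encodes neurocan, a lectican whose level falls as the brain matures. Its probe set was below the filter, at 5.33, 5.67 and 5.99 in ethanol animals and 5.29, 5.58 and 5.84 in water animals. Ethanol animal 6 lay above every water animal, and 3 water animals lay below every ethanol animal. The difference was 0.10 (SE 0.0797, 95% interval -0.07 to 0.26; limma adjusted p = 0.694 with no filter).

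Hapln1 encodes the cartilage link protein, which clamps lecticans onto hyaluronan. Its main probe set read 7.15, 7.87 and 8.19 in ethanol animals and 7.39, 7.74 and 8.03 in water animals. The ethanol group held the extremes on both sides: animal 1 was below every water animal, and 2 animals were above all of them. The mean difference was 0.13 (SE 0.105, 95% interval -0.09 to 0.35; limma adjusted p = 0.606), with -0.05, 0.23 and 0.28 in the 3 runs, and it was 0.20 without ethanol animal 1. The other Hapln1 probe sets, both below the filter, gave 0.11 and 0.01. Each lectican gene has a link protein gene as its neighbour in the rat assembly, with 0 protein-coding genes between them: Acan beside Hapln3, Bcan beside Hapln2, Ncan beside Hapln4 and Vcan beside Hapln1. The neighbours Vcan and Hapln1 differed in sign between the groups and correlated at r = -0.16 over the 20 arrays. Named after their values were seen, Hapln2 had a difference of -0.31 (SE 0.273), Hapln4 of -0.03 and Hapln3, below the filter, of 0.05, beside -0.04, 0.10 and 0.03 for the lectican next to each.

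Tnc had the largest difference of the 8 genes. It encodes tenascin-C, a matrix glycoprotein made mainly by astrocytes and radial glia that falls after development. Its values were 7.32, 7.87 and 8.27 in ethanol animals and 7.65, 8.07 and 8.58 in water animals. The groups overlapped over most of their range, with 4 water animals above the highest ethanol animal and 2 ethanol animals below the lowest water animal. The means were 7.84 ± 0.286 and 8.15 ± 0.336 (SD, n = 10 per group), a difference of -0.31 (SE 0.130, 95% interval -0.58 to -0.03), which is 1.24-fold higher in water, with 9 of 10 ethanol animals below the water mean. Tnc did not pass either (limma p = 0.0290, adjusted p = 0.347). Its differences in the 3 runs were -0.55, -0.21 and -0.01. Without the arrays that stood apart, 1 of which gave the highest ethanol value, the difference was -0.33 (SE 0.139; limma adjusted p = 0.482).

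Tnr encodes tenascin-R, the tenascin of adult nets, which binds lecticans and ties them to each other. Its values were 10.80, 11.01 and 11.17 in ethanol animals and 10.91, 11.07 and 11.22 in water animals. The groups overlapped, with 4 water animals above the highest ethanol animal and ethanol animal 5 below the lowest water animal. The difference was -0.07 (SE 0.0496, 95% interval -0.17 to 0.03; limma adjusted p = 0.554), with 8 of 10 ethanol animals below the water mean, and it was -0.04 without ethanol animal 5. Ptprz1 encodes a receptor-type phosphatase of glia whose secreted form, phosphacan, is a chondroitin sulfate proteoglycan bound by tenascins. It read 12.26, 12.36 and 12.58 in ethanol animals and 12.19, 12.34 and 12.58 in water animals, with 1 water animal above and 2 below all ethanol animals. The Ptprz1 difference was 0.03 (SE 0.0556, 95% interval -0.09 to 0.14; limma adjusted p = 0.872), and -0.05 by its other probe set, so its direction was not settled.

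The marker genes of glia differed in the same direction as Vcan and Tnc. Gfap, the intermediate filament gene of astrocytes, read 12.19, 12.53 and 13.18 in ethanol animals and 12.35, 13.18 and 13.67 in water animals, a difference of -0.51 (SE 0.165; limma adjusted p = 0.284) with -0.80, -0.56 and 0.18 in the 3 runs. Without the arrays that stood apart the Gfap difference was -0.46 (SE 0.178; limma adjusted p = 0.458). Mbp, which encodes myelin basic protein, read 14.97, 15.56 and 15.73 in ethanol and 15.24, 15.63 and 15.81 in water animals, a difference of -0.13 (SE 0.0896; limma adjusted p = 0.536). In the 3 runs the Mbp difference was -0.15, -0.26 and 0.18. That of Mbp was -0.07 without ethanol animal 3, and -0.28 (SE 0.294) and -0.25 (SE 0.147) by its other probe sets. The synaptic gene Snap25 went the other way, at 0.14 (SE 0.0415; limma adjusted p = 0.239), with 10 of 10 ethanol animals higher than the mean of the water group. With Mbp as a covariate in the fit, the difference of Vcan was -0.08 (SE 0.0564) and that of Tnc -0.25 (SE 0.134). With Gfap as a covariate they were -0.02 (SE 0.0770) and 0.00 (SE 0.103). Since Gfap itself was lower in 9 of 10 ethanol animals than the water mean, group and Gfap cannot be told apart in these values. For Bcan the difference with Gfap as a covariate was 0.01, for Tnr -0.05, for Hapln1 0.08 and for Ptprz1 0.05.

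**Figure D2:**
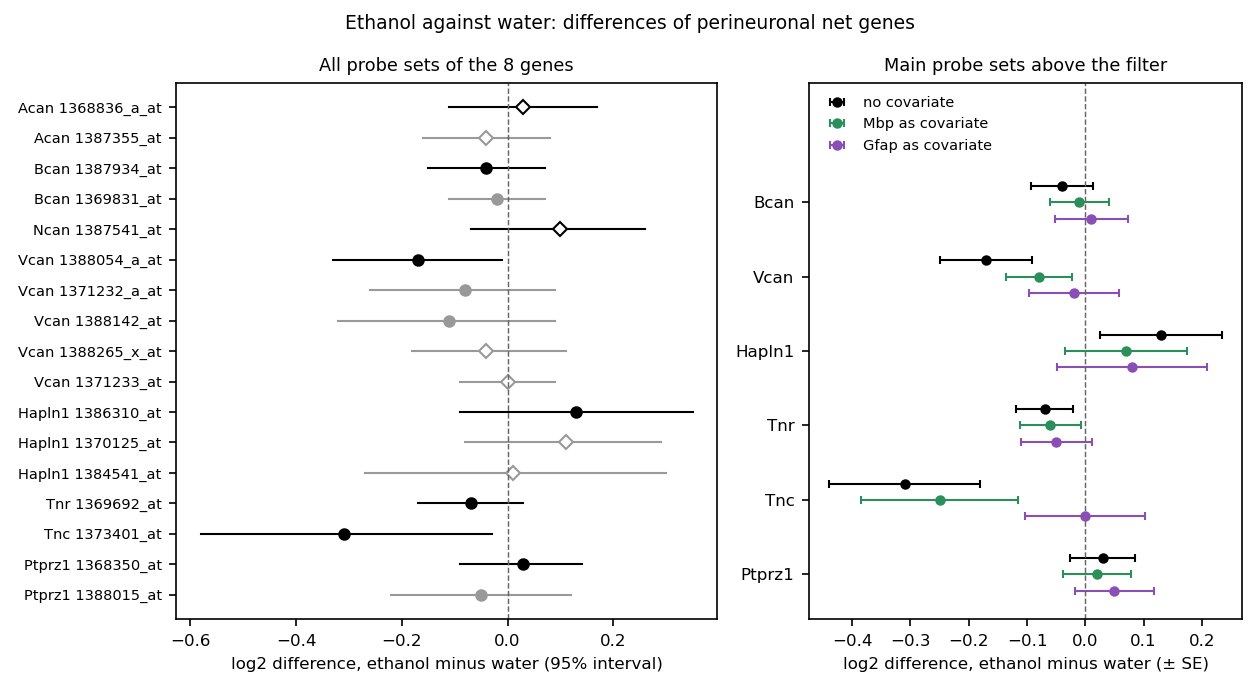
Left, log2 difference (ethanol minus water, horizontal axis) with its 95% interval for all 17 probe sets of the 8 genes; black marks main probe sets, grey the others, and open diamonds those below the filter. Right, the difference ± SE of the 6 tested genes with no covariate (black), Mbp (green) or Gfap (purple) as a covariate; Vcan goes from -0.17 to -0.02 and Tnc from -0.31 to 0.00 with Gfap.

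Over all animals, centred within groups, Vcan followed Mbp and Tnc followed Gfap. With each group taken alone, Vcan with Mbp passed adjustment by Pearson r only in ethanol animals, and Tnc with Gfap only in water animals. Each gene was centred within its group and correlated over the 20 arrays, with a within-group permutation test. Of 16 relations of the 8 genes with Mbp and Gfap, 3 passed Benjamini-Hochberg adjustment and 4 had an unadjusted p under 0.05. Vcan and Mbp gave Pearson r = 0.771 (permutation p = 8e-05, adjusted p = 0.00128) and Spearman rho = 0.785 (permutation p = 0.00013, adjusted p = 0.00208). The 3 ethanol animals with the least Mbp (animals 3, 2 and 5) had the lowest Vcan values of their group, at 9.47, 9.46 and 9.44. The Vcan relation held at r = 0.849 without the 2 arrays farthest from the Mbp median, at 0.78 without the arrays that stood apart, and at 0.76 to 0.80 when any single animal was left out. It was 0.892 in the first run and 0.831 in the second, while the last held too few arrays. Mbp was close to the top of the scale, whose highest value was 16.16, and its other 2 probe sets gave r = 0.73 and 0.85 with Vcan. Within ethanol animals alone r was 0.822 (permutation p = 0.00182, adjusted over 32 relations 0.0291; rho = 0.758, adjusted p = 0.175) and within water animals 0.752 (permutation p = 0.0107, adjusted p = 0.0854). The difference in r between the groups was not tested.

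Tnc and Gfap gave Pearson r = 0.779 (permutation p = 0.0002, adjusted p = 0.0016) and Spearman rho = 0.737 (permutation p = 0.00078, adjusted p = 0.00624). The 4 water animals with the highest Tnc (13, 16, 12 and 18, at 8.58, 8.52, 8.49 and 8.43) had Gfap values of 13.50, 13.52, 13.24 and 13.67. High Tnc and high Gfap thus fell in the same water animals, with water animal 14, at 13.37 of Gfap and 8.05 of Tnc, outside that set. The Tnc relation was r = 0.694 without the 2 arrays farthest from the Gfap median and 0.83 without the arrays that stood apart. It was 0.885 within water animals (permutation p = 0.00165, adjusted p = 0.0291; rho = 0.806, adjusted p = 0.175) and 0.602 within ethanol animals (permutation p = 0.0652, adjusted p = 0.298). Without the 2 arrays of the group farthest from its Gfap median, r was 0.8 within water and 0.274 within ethanol animals. By run the Tnc relation was 0.407 in the first and 0.753 in the second. Centred within group and run, r was 0.74 but the permutation adjusted p was 0.117, against 0.00096 to 0.0168 when any animal, the farthest 2 or the arrays that stood apart were left out.

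Vcan also correlated with Gfap, at Pearson r = 0.636 (permutation p = 0.005, adjusted p = 0.0267) and Spearman rho = 0.612 (permutation p = 0.00692, adjusted p = 0.0369). Whether this relation passed depended on a few arrays, while r ran from 0.56 to 0.76 when any single animal was left out. Without the 2 arrays farthest from the Gfap median r was 0.502 (permutation adjusted p = 0.213). It also missed the threshold without ethanol animal 10 (0.0529), water animal 20 (0.0803) or water animal 21 (0.0583), and without the arrays that stood apart (0.0648). Centred within group and run, the relation had r = 0.47 (permutation adjusted p = 0.2). Its r was 0.645 in the first run, 0.577 in the second, 0.796 within water animals and 0.333 within ethanol animals. Bcan and Mbp gave r = 0.489 (permutation p = 0.018, adjusted p = 0.0722) but rho = 0.258, and r = 0.141 without the 2 farthest arrays. Leaving out ethanol animal 1 or water animal 16 brought the permutation adjusted p of Bcan with Mbp to 0.0140 and 0.0465.

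**Figure D3:**
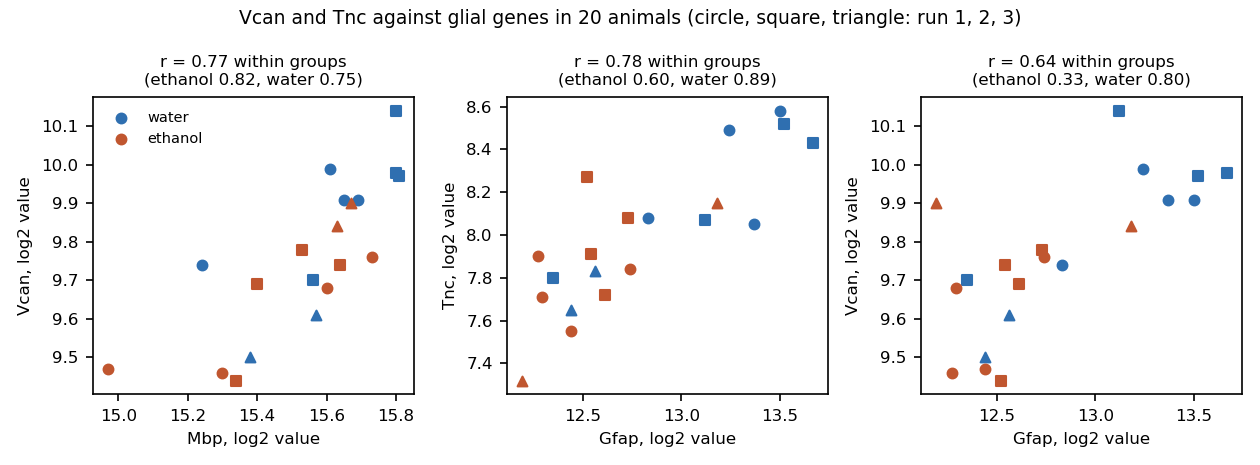
Log2 values of Vcan against Mbp, Tnc against Gfap and Vcan against Gfap in the 20 animals (water blue, ethanol orange; circle, square and triangle for the first, second and last run), with the correlation after centring within groups, 0.77, 0.78 and 0.64, above each panel. In the panels of Vcan against Mbp and Tnc against Gfap, animals with more of the glial gene tended to have more of the net gene. For Vcan against Gfap, r was 0.333 within ethanol and 0.796 within water animals. Ethanol animal 9, with the least Gfap, had the highest Vcan value of its group. The ethanol animals of the Gfap panels lie mostly at the left.

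No relation of a net gene with a gene of neurons, interneurons or precursors, or with another net gene, passed the adjusted threshold. Of 24 relations with Snap25, Pvalb (parvalbumin) and Pdgfra (a receptor of oligodendrocyte precursors), 0 passed the adjusted permutation test and 4 had an unadjusted p under 0.05. Acan and Pvalb gave r = 0.557 (permutation p = 0.0131, adjusted p = 0.158) and rho = 0.631, with r = 0.751 within ethanol and 0.416 within water animals, and 0.626 and 0.306 in the first and second run. Pvalb itself varied widely between animals, from 6.61 to 9.58 in ethanol and from 6.51 to 9.43 in water. Hapln1 and Pdgfra gave r = -0.640 (permutation p = 0.00245, adjusted p = 0.0588) and rho = -0.544, and the sign was negative in each group (-0.611 in ethanol, -0.710 in water) and in each of the first 2 runs (-0.851 and -0.668). With arrays centred on their medians this relation passed, at r = -0.70 (permutation adjusted p = 0.0144), against 0.13 to 0.297 in the other settings. Vcan and Pdgfra were at r = 0.5 (adjusted p = 0.255) and Ptprz1 and Pdgfra at -0.471 (adjusted p = 0.288, both by permutation).

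Of 28 pairs among the net genes, 0 passed the adjusted permutation test and 3 had an unadjusted p under 0.05. Acan and Bcan ran against each other, at r = -0.664 (permutation p = 0.00518, adjusted p = 0.0942), but r was -0.247 without the 2 arrays farthest from the Acan median. Water animal 15, an array that stood apart, had both the highest Acan and the lowest Bcan value, and without the arrays that stood apart r was -0.45. Hapln1 and Ptprz1 gave r = 0.584 (permutation p = 0.00673, adjusted p = 0.0942), with 0.478 in ethanol and 0.732 in water animals and 0.63 without the arrays that stood apart. Tnc and Ptprz1, which encode a ligand and its receptor, gave r = 0.469 (permutation p = 0.0478, adjusted p = 0.446).

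**Figure D4:**
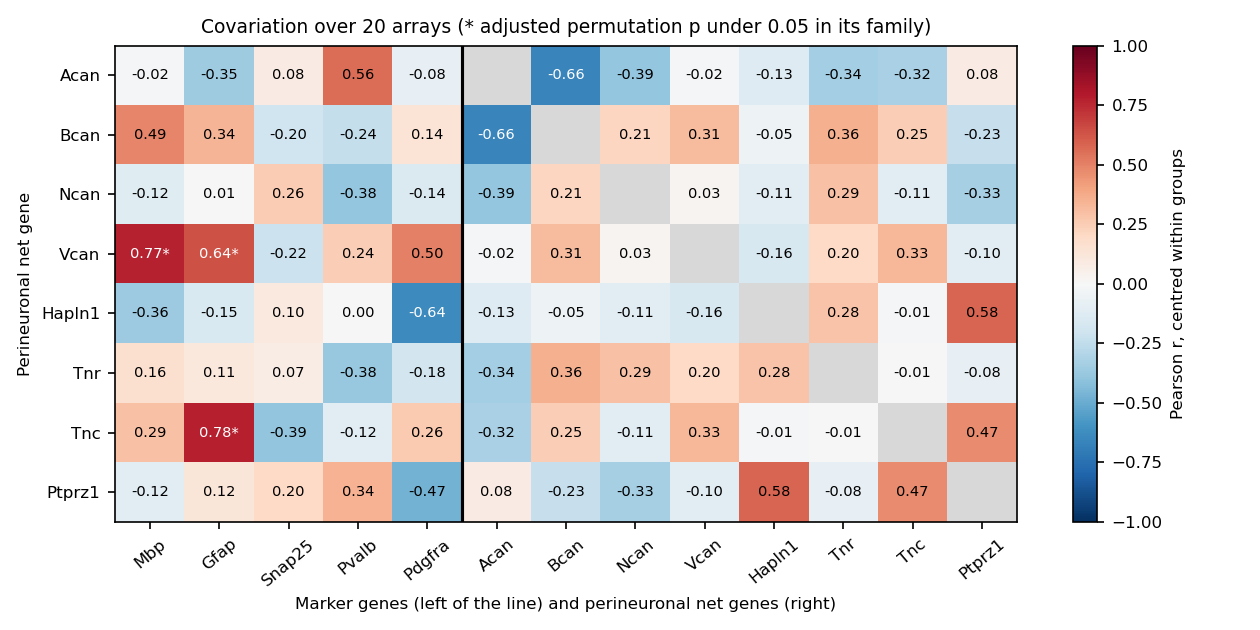
Pearson r over 20 arrays after centring within groups, for each net gene (rows) with 5 marker genes (left of the line) and with the other net genes (right); red is positive and blue negative, and an asterisk marks a permutation p under 0.05 after adjustment within its family. The 3 marked cells are Vcan with Mbp (0.77), Vcan with Gfap (0.64) and Tnc with Gfap (0.78).

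The genes whose profile was most like each net gene were taken from the 13608 probe sets above the filter that have 1 symbol, by Pearson r over the 20 arrays after centring within groups. These are the extremes of many correlations and are given as a description. Vcan was followed most closely by Npr1 (r = 0.880), a natriuretic peptide receptor, Gab1 (0.876), an adaptor of growth factor receptors, and Zfp488 (0.873), a transcription factor of oligodendrocytes. For Tnc they were Igfbp5 (0.829), a binding protein of insulin-like growth factors, Rabl2 and Add3. For Ptprz1 they were Rfx4 (0.917), a transcription factor, Tenm3 and Slit2 (0.9), an axon guidance ligand. Hapln1 was followed by Ripor2 (0.887), Epm2aip1 and Phactr1, and Tnr by Tafa2 (0.803), Mmd2 and Nav1. Nearest to Bcan was Apoe (0.826), the main apolipoprotein of astrocytes, before Slx9 and Msl1. Ncan was nearest to Cdk14 (0.812), Lrrc4b and Paqr8, and Acan to Vwf (0.765), the von Willebrand factor gene of endothelium, Cox7a1 and Fhl3. Ncan and Acan were below the filter, and the other probe sets of Acan and Bcan followed the main ones at r = 0.109 and -0.258. These closest genes were not sought without water animal 15, which had the lowest Bcan value.

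Genes that build, cut and bind the nets were counted in 6 lists, and limma called 0 of the 54 tested genes (background 0.0215%), with 9 at an unadjusted p under 0.05, a level that 12.8% of all probe sets tested reached. The proteases that cut lecticans and their inhibitors had the lowest median of the 6 lists: 9 of 9 tested genes had a lower mean with ethanol, 4 of them at an unadjusted p under 0.05, and the median difference was -0.34. Of all probe sets tested, 42.2% were lower and 5.48% were lower at that p, and their median was 0.0161. Adamts9, a protease that cleaves versican and aggrecan, had a mean of 7.19 ± 0.185 with ethanol and 7.60 ± 0.233 with water (SD, n = 10 each), a difference of -0.42 (SE 0.0896; limma adjusted p = 0.140) with -0.42, -0.45 and -0.35 in the 3 runs. Timp1, an inhibitor of metalloproteinases, differed by -0.43 (SE 0.105; limma adjusted p = 0.178), with -0.42, -0.35 and -0.58. For both genes 10 of 10 animals with ethanol were under the mean of the water group, and with Gfap as a covariate the differences were -0.27 and -0.46. Over the whole list, 7 of 9 genes were lower with Gfap as a covariate, and the median was -0.108. In that same fit 8304 of 18625 probe sets were lower, and their median was 0.00959. The lecticanase Adamts4 (-0.52, SE 0.195) and Adamts5 (-0.16, SE 0.0685), named after their values were seen, did not pass (limma adjusted p = 0.314 and 0.342), and in the last run the difference of Adamts4 was 0.40. Markers of choroid plexus (4 of 4 lower) and of meninges (6 of 6 lower) were lower with ethanol as well, the choroid plexus mean running from 6.06 to 11.16 in ethanol and from 6.37 to 11.74 in water animals and the meningeal mean from 7.85 to 9.56 and from 7.96 to 10.61. Their part in the protease values was not tested.

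The share to set beside the other lists is 42.2% of all probe sets tested lower with ethanol, at a median of 0.0161. Other link proteins and the genes of hyaluronan had 4 of 5 tested genes lower (median -0.0847). Among them, the hyaluronidases Hyal2 (-0.08, SE 0.0336) and Hyal3 (-0.21, SE 0.0895) had limma adjusted p-values of 0.324 and 0.345. Chondroitin sulfate synthesis makes the sugar chains of the lecticans. It had 6 of 10 genes higher (median 0.0343), near the share of all probe sets tested (10762 of 18625 higher). B3galt6 was at 0.22 (SE 0.0944) and B4galt7 at 0.09 (SE 0.0522), both enzymes of the linker to the core protein. The receptors, ligands and net-bound factors were split, 7 lower and 5 higher of 12 (median -0.0704), with the proteoglycan Sdc3 at 0.15 (SE 0.0703) and the integrin subunit Itgb1 at -0.14 (SE 0.0858). Without the arrays that stood apart Sdc3 was at 0.05. Other matrix of brain had 9 of 14 genes lower (median -0.0252), with the laminin subunit Lamc1 at -0.14 (SE 0.0463) and the proteoglycan Cspg5 at 0.21 (SE 0.102), which was 0.12 without the arrays that stood apart. Of the 4 tested genes of net-bearing fast-spiking interneurons, 2 were lower and 2 higher, the latter being the potassium channel genes Kcnc1 (0.15, SE 0.0961) and Kcnc2 (0.16, SE 0.108), and Pvalb was at -0.31 (SE 0.364). Kcnc1 was at 0.08 without ethanol animal 1 and Kcnc2 at 0.10 without ethanol animal 9, and Pvalb ran from -0.50 to -0.16 with each animal left out. From B3galt6 on, limma gave the genes of this paragraph adjusted p-values from 0.284 to 0.734.

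**Figure D5:**
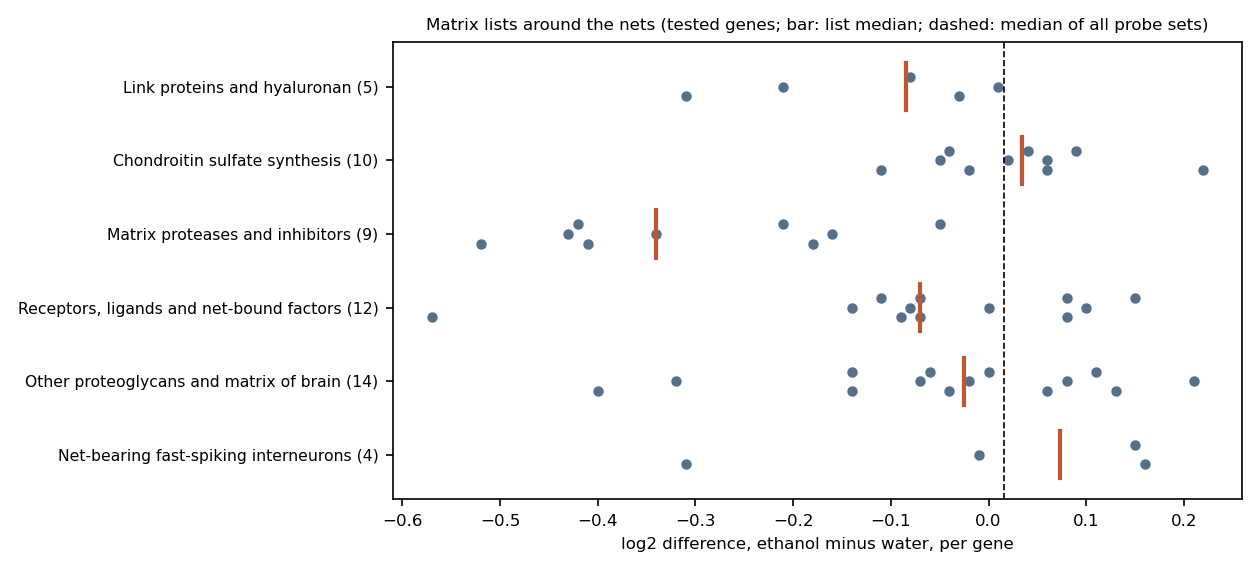
Log2 difference (ethanol minus water, horizontal axis) of each tested gene (points) in 6 lists around the nets, with the number tested in brackets, the list median as an orange bar and the median of all probe sets tested as a dashed line. All 9 points of the protease and inhibitor list lie below 0, and the other lists lie on both sides of 0.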

How the data were processed

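The deposited values are RMA summaries per probe set and array; RMA is named in the submitters' processing notes, no version is recorded in the labels, and the log2 scale of the deposited values was read from their range (3.82 to 16.16). Per the labels' protocols, biotin-labelled cRNA was made from 50 ng of total RNA with a 3' IVT kit. Of 31099 probe sets, 57 controls were left out. Names came from the platform annotation, which gives 1 symbol for 20826 probe sets and several for 436. Probe sets with a mean above the 40th percentile (18625) were tested with limma 3.58.1 (lmFit, eBayes) in R 4.3.3; p-values were two-sided, adjusted by Benjamini and Hochberg's method and called under 0.05. The files hold no signal over background. Precision rested on the spread between animals and the number of arrays, with a median within-group SD of 0.141 and a median SE of 0.0624. Correlations used 100000 within-group permutations, two-sided, in Python 3.11.15 with numpy 2.4.6, adjusted within each family of relations. Arrays stood apart where their mean correlation lay over 3 scaled median absolute deviations below the median.

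The members, lists and tests were chosen with earlier results of these data known. Named genes are the 8 members, 5 markers, up to 2 genes per list with the smallest p, and the 3 most alike genes per member. The alternatives were other filters, centring, loess, array weights, trended eBayes, a block for the run, covariates (signal at the 3' against the 5' end, Mbp, Gfap), each animal left out, 1 probe set per gene and other probe sets. Other Mbp probe sets and the correlations with each animal left out were alternatives chosen after seeing the data. On simulated data the fit was tested beforehand.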

Additional observations from a re-analysis of the deposited data

Results flagged for a closer look

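Bcan in water animal 15 was 11.38, separated from the next water animal by more than Dixon's critical value allows for 10 arrays (gap over range 0.635). Hapln1 in ethanol animal 1 was 7.15, likewise apart from the other ethanol animals (gap over range 0.518). Of 26 groups examined, for 8 net genes and 5 markers, these 2 were marked, and chance marks about 1 in 20.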

How the results depend on the processing

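The count of net genes past limma's threshold was 0 under every alternative run, as was that of the pathway lists. The count over all probe sets, 4, was 2 with the filter at the 60th percentile, 23 with array quality weights, 0 with the Gfap level as covariate (with 601 under an unadjusted p of 0.05) and 0 with 1 probe set per gene (1278), and ran from 1 to 8 with each animal left out. Signs turned for Acan by its other probe set (-0.04), for Bcan with Gfap as a covariate (0.01) and for Ptprz1 by its other probe set (-0.05). With each animal left out, Vcan ran from -0.21 to -0.14, Tnc from -0.36 to -0.25 and Hapln1 from 0.09 to 0.20, and array weights gave -0.11 for Vcan. The 3 relations with Mbp and Gfap became 1 after centring within group and run, and 2 to 4 with each animal left out; the 0 with Snap25, Pvalb and Pdgfra became 1 with median centring. The causes were not tested. No paired analysis was possible because no animal number occurs in both groups. Nothing in the labels says that the runs are batches, and the last holds 2 animals per group. The smallest permutation p that could be reached over the 20 arrays was 1e-05.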
